A study of Mus musculus with 4 samples.

Results

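Among the broad peaks of histone H3 acetylated at lysine 9 (H3K9ac) called in romidepsin-treated senescent myeloid cells, 2546 of 103336 peaks were 5000 to 20000 bp long and overlapped no peak of the list made without the drug. These long peaks were chosen by their measured length and by the absence of an overlapping peak in the other list, so neither property is a result. Of all romidepsin peaks 87.1% overlapped no peak of the untreated list, and of the 8705 romidepsin peaks of 5 to 20 kb this held for 29.2%. The long peaks covered 18.2 Mb.

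The cells were mouse myeloid-derived suppressor cells (MDSC) grown from bone marrow and made senescent in vitro. One group received romidepsin under a condition that the labels call CM and do not expand, and the other was kept under CM alone. Each group had 1 immunoprecipitated library with a peak list and 1 input library, which was not analysed here. The sources used here give no dose, time, strain, sex, age or read depth. A single library stood for each condition, so no difference has a replicate check and none was tested, and a deeper library can give more and wider peaks at the same threshold. Monocyte and macrophage marker genes had a peak within 1 kb of a gene end at 10 of 10 genes with romidepsin and 9 of 10 in CM, neutrophil markers at 12 of 12 and 6 of 12, and lymphocyte markers at 12 of 14 and 3 of 14. The counts were 7 of 8 and 3 of 8 for dendritic cell, 5 of 6 and 2 of 6 for erythroid and megakaryocyte, 6 of 8 and 1 of 8 for stromal and endothelial, and 2 of 6 and 0 of 6 for mast cell and basophil markers. Over all 21887 protein-coding genes they were 13968 with romidepsin and 10681 in CM.

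Acetylation of lysine 9 of histone H3 is laid down by acetyltransferases such as GCN5 and PCAF and is found mainly at active promoters, with a weaker presence at enhancers. Histone deacetylases remove it, and romidepsin, a cyclic peptide prodrug, blocks chiefly the class I enzymes of that family. In untreated cells H3K9ac domains usually sit as short blocks over CpG-rich start sites.

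The few transcription start sites that lay inside long romidepsin peaks without a CM peak were poor in CpG. RefSeq start sites (build GRCm38.p6, the assembly behind mm10) were listed for 17492 of the 21887 protein-coding genes, 21263 sites in all, and 125 of these, from 107 genes, lay inside such a peak. Over the 300 bases from 250 before to 50 after the site, the median number of CpG dinucleotides was 5 (interquartile range 3 to 11) at these 125 sites and 23 (15 to 31) at the 5721 sites inside romidepsin peaks of 5 to 20 kb that did overlap a CM peak. The median ratio of observed to expected CpG was 0.268 and 0.806 in the same order. A ratio of at least 0.6 was reached at 25 of the 125 sites in long peaks without a CM peak (20%, exact Clopper-Pearson 95% interval 13.4 to 28.1) and at 76.7% of the sites in the peaks that overlapped CM (75.6 to 77.8). These and all other intervals cover counting error only. Those for start sites treat several sites of the same gene as separate, although their bases can overlap. A start site inside a CM peak could not be among the 125, because the rule removes every peak that overlaps one. The contrast with peaks that overlapped CM is therefore not independent of the rule. Sites inside romidepsin peaks under 5 kb without a CM peak had a median of 12 CpG, sites in no romidepsin peak 4, and all 21263 listed sites 13. A ratio of at least 0.6 was reached at 41.7%, 14.5% and 47.7% of the sites in the same order. Of the 125 sites, 62 lay within 1 kb of the outer end of the gene and 63 were start sites farther inside it. Of the 107 genes, 32 had another listed start inside a CM peak.

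**Figure D1:**
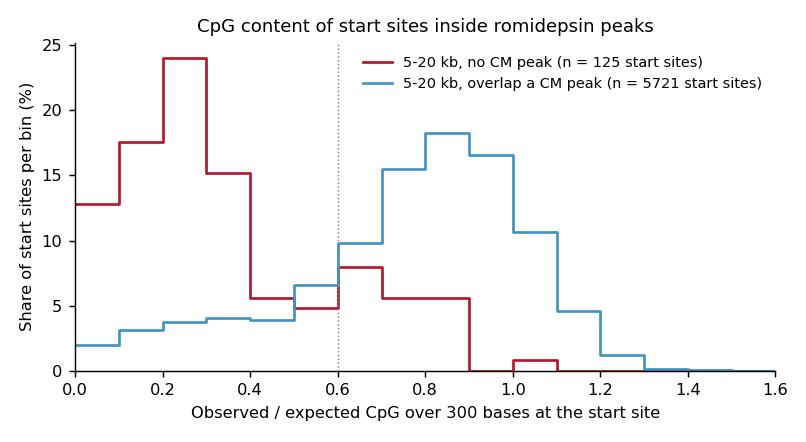
Share of start sites (%) by ratio of observed to expected CpG over 300 bases, for start sites inside romidepsin peaks of 5 to 20 kb without a CM peak (red) and with one (blue). The dotted line marks 0.6; the medians are 0.268 and 0.806.

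To show this difference in the DNA itself, the 250 bases before 5 such start sites are given 5′ to 3′ with every CpG in capitals. They belong to Il1b (interleukin 1 beta), Lif (a cytokine of the interleukin 6 family), Cxcl10 (an interferon-induced chemokine), Trem1 (an activating receptor of neutrophils and monocytes) and Pde4b (a cyclic AMP phosphodiesterase), and the last line gives Rplp0, a ribosomal protein gene whose start lay in a CM peak. The sequences are those of RefSeq, build GRCm38.p6, and were picked from the gene lists used below after their values were seen.
Il1b (chr2:129371140-129371389, minus strand): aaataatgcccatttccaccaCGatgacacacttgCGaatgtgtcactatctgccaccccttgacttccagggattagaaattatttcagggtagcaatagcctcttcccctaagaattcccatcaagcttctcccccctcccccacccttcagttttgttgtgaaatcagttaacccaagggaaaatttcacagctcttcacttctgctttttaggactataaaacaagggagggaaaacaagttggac
Lif (chr11:4257318-4257567, plus strand): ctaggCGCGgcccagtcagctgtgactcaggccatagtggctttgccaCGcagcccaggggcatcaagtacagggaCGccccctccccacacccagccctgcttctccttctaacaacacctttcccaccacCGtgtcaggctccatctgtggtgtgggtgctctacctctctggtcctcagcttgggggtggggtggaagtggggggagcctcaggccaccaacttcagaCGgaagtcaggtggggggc
Cxcl10 (chr5:92348890-92349139, minus strand): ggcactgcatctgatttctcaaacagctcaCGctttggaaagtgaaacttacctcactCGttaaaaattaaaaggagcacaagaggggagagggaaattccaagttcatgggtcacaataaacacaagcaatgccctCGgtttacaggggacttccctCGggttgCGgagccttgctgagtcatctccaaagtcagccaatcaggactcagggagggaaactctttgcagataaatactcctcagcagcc
Trem1 (chr17:48232489-48232738, plus strand): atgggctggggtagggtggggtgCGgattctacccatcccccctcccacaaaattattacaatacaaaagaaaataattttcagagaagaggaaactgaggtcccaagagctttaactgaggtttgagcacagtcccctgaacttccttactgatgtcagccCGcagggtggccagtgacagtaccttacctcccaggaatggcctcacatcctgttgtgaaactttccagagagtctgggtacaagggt
Pde4b (chr4:102587308-102587557, plus strand): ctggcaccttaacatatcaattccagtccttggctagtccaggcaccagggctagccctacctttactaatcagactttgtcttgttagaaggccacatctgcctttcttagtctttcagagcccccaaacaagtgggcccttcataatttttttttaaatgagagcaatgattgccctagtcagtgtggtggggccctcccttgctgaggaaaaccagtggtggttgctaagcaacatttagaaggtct
Rplp0 (chr5:115559217-115559466, plus strand): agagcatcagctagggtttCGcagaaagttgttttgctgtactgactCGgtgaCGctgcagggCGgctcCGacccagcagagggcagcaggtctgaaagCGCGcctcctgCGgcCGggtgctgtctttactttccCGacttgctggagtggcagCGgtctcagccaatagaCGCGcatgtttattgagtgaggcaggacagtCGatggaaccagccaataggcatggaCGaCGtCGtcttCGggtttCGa

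These 250 bases held 2 CpG at Il1b, 6 at Lif, 5 at Cxcl10, 2 at Trem1 and 0 at Pde4b, against 19 at Rplp0. Over 300 bases Lif and Cxcl10 had 7 and 10 CpG, within the interquartile range of the 125 sites. The Pde4b site is one of several starts of that gene and lies inside it, under a peak of 14463 bp.

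Short motifs were searched in the 300 bases on both strands: the TATA box (TATAAA), AP-1 (TGANTCA), C/EBP (TTGCNNAA), PU.1 (GAGGAAG), ETS (CCGGAAG), CRE (TGACGTCA), SP/KLF (GGGCGG), NF-kappaB (GGGNNTTCC), NRF1 (GCGCATGC) and ISRE (GAAANNGAA). None contains another, although matches can share bases. The AP-1 letters were found at 19 of the 125 sites (15.2%, interval 9.41 to 22.7), against 4.37% of sites in peaks that overlapped CM and 6.99% of all 21263 sites. The share was 7.36% at sites in romidepsin peaks under 5 kb without a CM peak and 9.84% at sites in no romidepsin peak. Lif and Cxcl10 were among the 19. GC-rich letters were rarer: SP/KLF was found at 27.2% of the 125 sites, against 67.5% of sites in peaks that overlapped CM and 46.2% of all, and ETS at 4.00%, against 19.9% and 11.6%. Sites in romidepsin peaks under 5 kb without a CM peak held these letters at 50.6% and 4.35%, and sites in no romidepsin peak at 21.2% and 2.86%. The SP/KLF and ETS letters each hold a CpG, so their counts are not separate from the CpG counts above. As for CpG, the contrast with peaks that overlapped CM is not independent of the rule. The TATA box was found at 13.6%, against 6.50% and 12.6%, and Il1b held one; at sites in no romidepsin peak it was found at 20.8%. PU.1 (14.4%), C/EBP (8.00%), NF-kappaB (4.80%) and ISRE (11.2%) stood at 14.4%, 7.6%, 8.08% and 7.31% in the peaks that overlapped CM and at 14.0%, 13.2%, 4.67% and 9.46% at sites in no romidepsin peak. NRF1 was found at 0.800% and CRE at 0 of 125 sites, which allows a share of up to 2.4% by the rule of 3 counts in the total (exact upper limit 2.91%). A match is a match of letters and does not show binding.

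Most long peaks lay inside genes and away from their ends. Of the 2546 peaks, 1960 (77.0%, interval 75.3 to 78.6) overlapped a protein-coding gene. A gene end, meaning 1 kb on either side of an annotated start or end, was met by 371 peaks (14.6%, interval 13.2 to 16.0), whereas 1613 (63.4%, 61.4 to 65.2) lay in a gene away from these windows and 562 (22.1%, 20.5 to 23.7) outside both genes and windows. Romidepsin peaks of the same length range that overlapped a CM peak met a gene end in 75.9% of cases (74.8 to 77.0) and lay inside genes away from ends in 16.2%. The contrast was present in each length range, but the rule splits these groups by the presence of a CM peak, so it is not independent of the rule. At 5 to 7.5, 7.5 to 10 and 10 to 20 kb the long peaks without a CM peak met a gene end in 14.3%, 15.1% and 15.7% of cases, against 74.6%, 76.7% and 77.5% of the peaks that overlapped CM. Romidepsin peaks under 5 kb without a CM peak met a gene end in 8.26% of cases. Of these shorter peaks 63.9% overlapped a gene, and 57.6% lay inside genes away from ends. A longer peak can meet a gene or a gene end more easily. The median length was 6376.5 bp for the long peaks and 779 bp for the shorter ones. Among the long peaks the share overlapping a gene was 73.9%, 81.7% and 89.9% in the 3 length ranges. Over all 103336 romidepsin peaks 67.3% overlapped a gene, 16.6% met a gene end and 52.4% lay inside genes away from ends. The position of the long peaks was thus much nearer to these shares than to those of peaks that overlapped CM. Where only CM peaks with a −log10 q of at least 5 were counted, the share at gene ends among long peaks without a CM peak was 33.1%.

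**Figure D2:**
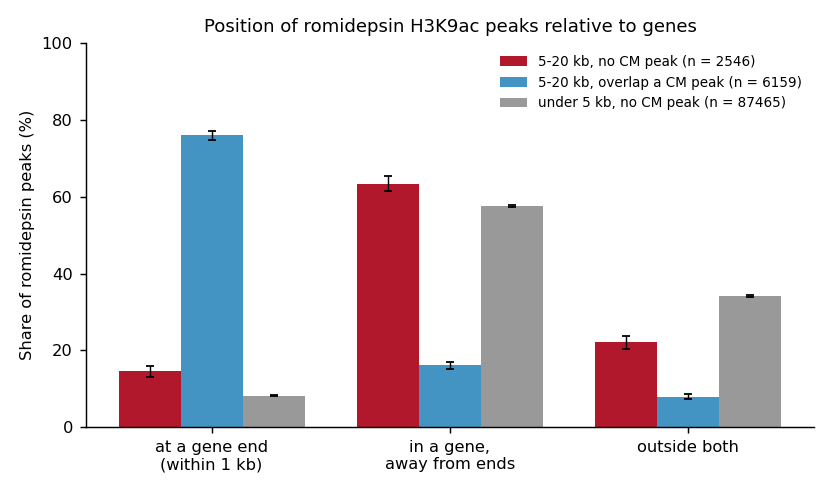
Share of romidepsin peaks (%) at a gene end, inside a gene away from its ends and outside both genes and the end windows, for peaks of 5 to 20 kb without a CM peak (red), peaks of 5 to 20 kb that overlap one (blue) and shorter peaks without one (grey). Error bars are exact 95% intervals for counting error; 63.4% of the red peaks lie inside genes away from ends and 75.9% of the blue peaks at a gene end.

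When a long peak without a CM peak did meet a gene end, it was more often the far end than the start. Of the 371 peaks, 88 met the outer start of a gene of known strand, 208 met only a far end, and 75 met no known start but a gene end of unlisted strand. Among the 4676 peaks at gene ends that overlapped CM, 3769 met a start and 116 only a far end. The rule itself splits these groups by the presence of a CM peak, so this contrast is not independent of it. The larger count of far ends among the 371 is not independent of it either. A peak at a start that reached a CM peak was removed by the rule. At 452 of 21887 protein-coding genes (2.07%) a gene end window held a long peak, and 282 of these 452 genes had a CM peak in a gene end window as well.

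The host genes were long and mostly carried H3K9ac in CM already. Long peaks overlapped 1416 genes (6.47% of 21887), whose median length was 55.2 kb, against 17.2 kb for all genes. A CM peak elsewhere in the span was present in 1257 of them (88.8%), against 52.6% of all genes, and a longer gene has more room for either kind of peak. Seen by peak, 1833 of the 1960 long peaks in genes (93.5%, interval 92.3 to 94.6) lay in a gene with a CM peak, compared with 86.6% (86.3 to 86.9) of shorter romidepsin peaks in genes without a CM peak of their own. Only 127 long peaks lay in genes with no CM peak anywhere. Along 876 genes of known strand, 1329 placements of a long peak wholly within a gene had a median distance of 27090 bp from the gene start (interquartile range 12081 to 58580 bp). With the gene divided into 4 equal stretches, the stretches held the middle of the peak in 23.5%, 33.2%, 27.1% and 16.3% of these placements, counted from the start to the far end. The nearest CM peak lay on the side of the gene start in 77.7% (75.4 to 79.9), and in 72.2% (71.8 to 72.6) for shorter peaks.

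Long peaks lay near CM peaks but rarely next to them. The gap to the nearest CM peak had a median of 11519.5 bp (interquartile range 5280 to 25083 bp) and ran from 261 bp to 3713551 bp. Within 1 kb lay 71 long peaks (2.79%), within 10 kb 1159 (45.5%, interval 43.6 to 47.5) and within 50 kb 2295 (90.1%), while 79 (3.10%) lay more than 100 kb away. Shorter romidepsin peaks without a CM peak had a median gap of 16368.5 bp. Of these, 1.44% lay within 1 kb, 36.1% (35.8 to 36.4) within 10 kb, 79.5% within 50 kb and 8.84% beyond 100 kb. A long peak that reached a CM peak was removed by the rule, and edge-to-edge gaps depend on peak length. A CM peak within 10 kb on both sides flanked 164 long peaks (6.44%). The nearest romidepsin peak that itself overlapped CM was closer, at a median of 7650.5 bp, and lay less than 1 kb away from 560 long peaks (22.0%). The gap differed with position: its median was 8577 bp for long peaks at gene ends, 12296 bp inside genes and 11600 bp outside.

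**Figure D3:**
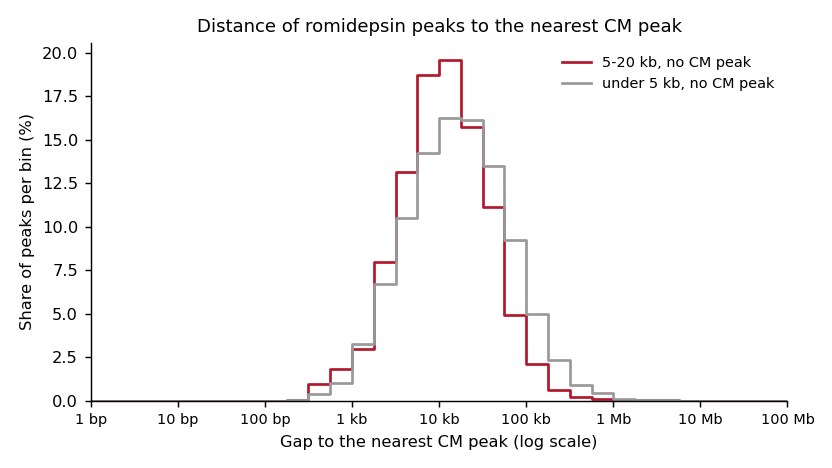
Share of romidepsin peaks (%) by gap to the nearest CM peak on a log scale, in bins of equal width, for peaks of 5 to 20 kb without a CM peak (red) and shorter ones (grey). The medians are 11519.5 and 16368.5 bp.

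The fold enrichment, the authors' peak caller's ratio to background averaged over the region, had a median of 3.19 (interquartile range 3.0 to 3.37) and a highest value of 4.34. Peaks of 5 to 20 kb that overlapped CM had a median fold of 3.84 and shorter peaks without CM 2.56. The median −log10 q was 3.91, 6.11 and 2.11 in the same order. Within the long peaks the median fold was 3.16, 3.24 and 3.32 at 5 to 7.5, 7.5 to 10 and 10 to 20 kb. It varied little with position, at 3.19 at gene ends, 3.17 inside genes and 3.22 outside, or with distance, at 3.20 within 10 kb of a CM peak and 3.15 beyond 50 kb. All these folds come from the romidepsin list and are not set against CM folds, which rest on another background.

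Several genes held chains of long peaks. Peaks less than 20 kb apart formed 414 runs of 2 or more, which held 996 of the 2546 peaks (39.1%), and 11 runs had 5 or more. The longest run had 10 peaks over 135.3 kb inside Asap1, which encodes an Arf GTPase-activating protein (chromosome 15, 64171982 to 64307270), with folds of 2.83 to 3.57. The whole gene held 13 long peaks covering 41.8% of its 296.1 kb, and 5 CM peaks. Next came runs of 6 peaks in Ptprj, a receptor tyrosine phosphatase gene (chromosome 2, 90477273 to 90568414), in Gfod1 (chromosome 13, 43197139 to 43291477), in Larp4b, which encodes an RNA-binding protein (chromosome 13, 9101942 to 9175703), and in a stretch without protein-coding genes on chromosome 17 (35734841 to 35811829). That stretch holds the long non-coding RNA genes 4833427F10Rik and Gm32409, ends 9.88 kb from the immediate early gene Ier3 and contained 0 CM peaks. Runs of 5 lay over Litaf and the sequence beside it, Fbxw11 (an F-box subunit of a ubiquitin ligase), Sgms1 (sphingomyelin synthase), Ikzf1 (the blood cell factor Ikaros), Cbl (a ubiquitin ligase of receptor signalling) and Rftn1 (a lipid raft protein). The Ikzf1 peaks covered 47.0% of the gene. Like the stretch on chromosome 17, the runs at Larp4b, Fbxw11, Ikzf1, Cbl and Rftn1 contained 0 CM peaks. Those at Asap1, Ptprj, Gfod1, Litaf and Sgms1 contained 1 each.

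By number of long peaks per gene, Asap1 was followed by Sgms1 with 8, and by Dip2b and Etv6, an ETS family repressor of blood cells, with 7 each. Lyn, a Src family kinase of myeloid cells, was among 8 genes with 6. Its peaks spanned 5571 to 13175 bp and covered 43.1% of the 113.5 kb gene, which held 4 CM peaks. In all, 28 genes held 5 or more long peaks and 1028 held 1. At the other extreme 15 short genes lay wholly inside a long peak. The longest of these were Il10, the gene of the immunosuppressive cytokine interleukin 10 (peak of 8891 bp, fold 3.51), Ldhd (D-lactate dehydrogenase, 14368 bp, fold 3.20), Adora3 (an adenosine receptor, 8562 bp, fold 2.98), Gm30732 (6622 bp, fold 3.14) and Ddn (6866 bp, fold 3.65). None of these 5 genes could hold a CM peak, because the rule bars one from any long peak.

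**Figure D4:**
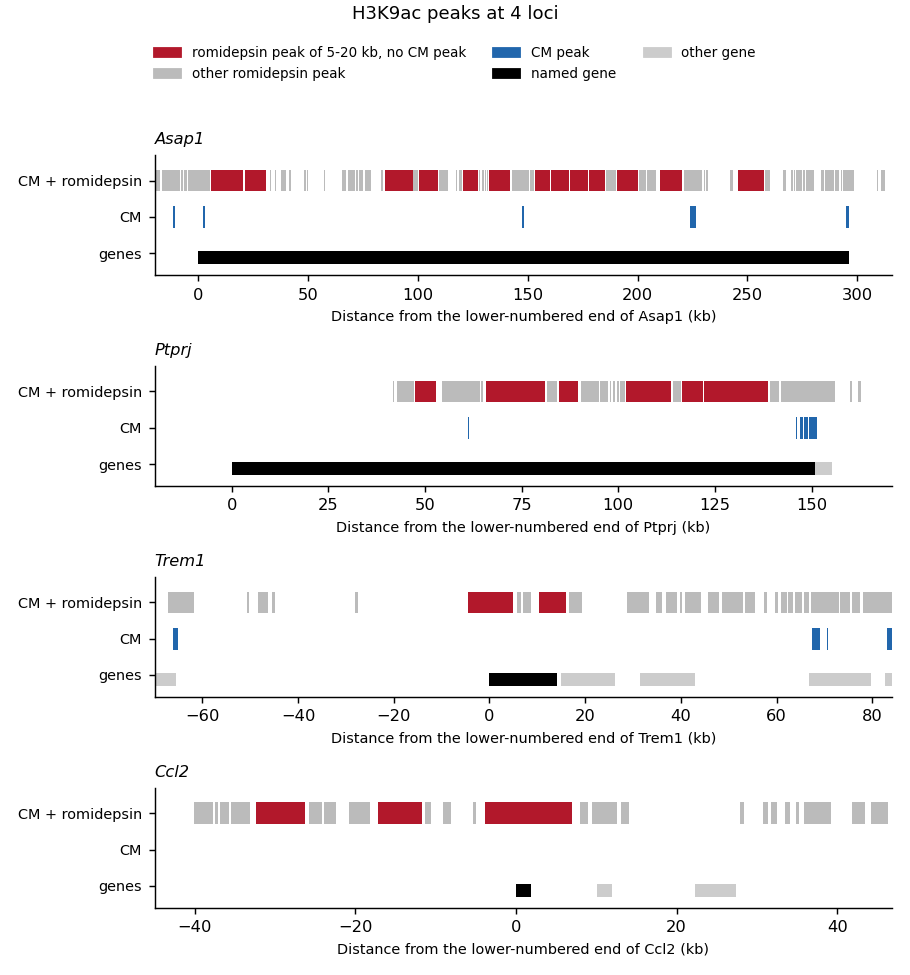
Peaks at Asap1, Ptprj, Trem1 and Ccl2, drawn to scale against the distance in kb from the lower-numbered end of each gene. The upper track holds romidepsin peaks, in red those of 5 to 20 kb without a CM peak, and the middle track CM peaks; Asap1 shows 13 red peaks and Ptprj 6, and the window around Ccl2 has 3 red peaks and no CM peak.

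The longest peaks described here overlapped protein-coding genes that held a CM peak elsewhere. The longest was 19796 bp in Ehd4, an endocytic recycling gene (chromosome 2, 120123942 to 120143737, fold 3.34, 8290 bp from a CM peak). Stk24, a kinase gene, had 19093 bp on chromosome 14 (121344733 to 121363825, fold 3.53). Ptprc, which encodes the leukocyte surface phosphatase CD45, had 19089 bp on chromosome 1 (138150259 to 138169347, fold 3.39), and this peak lay 2312 bp from a CM peak. The peaks in Rgl1 (a Ral exchange factor, 19067 bp), Gng12 (a G protein gamma subunit, 18785 bp) and Jarid2 (a cofactor of Polycomb repressive complex PRC2, 18731 bp) lay 81.8, 51.8 and 59.3 kb from a CM peak. Others were in Ankrd11 (a chromatin regulator, 18798 bp), over Spata13 and C1qtnf9 (18629 bp), and at an end of Ubl3 (18487 bp).

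The 10 peaks with the highest fold were led by Litaf, which encodes a lysosomal membrane protein induced by lipopolysaccharide (chromosome 16, 10975659 to 10983133, fold 4.34, −log10 q 7.66). Scimp, an adaptor of Toll-like receptor signalling in macrophages, followed with a peak at its gene end (chromosome 11, 70785010 to 70791970, fold 4.27), and this gene held no CM peak. Pkig, an inhibitor of protein kinase A, had 4.25, Baiap2, an actin regulator, 4.11, Cd276, the immune checkpoint ligand B7-H3, 4.08, and Comp, a cartilage matrix gene without a CM peak, 4.08. Lyn reached 4.07 and Hdac4, a class IIa deacetylase, 4.06, in a peak 93.1 kb from CM (chromosome 1, 92078833 to 92085368). Copz1, a coatomer subunit gene, and Tbc1d2b, a Rab GTPase-activating protein gene, had 4.02 each.

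A list of genes for secreted inflammatory factors, among them matrix proteases, was counted as well. Of its 30 genes, 8 (26.7%) had a long peak at a gene end, against 2.07% of all protein-coding genes. This list was drawn up with earlier results of these data known, and no set test was run. The share therefore describes these 30 genes and does not extend to such genes in general. Interleukin and interleukin receptor genes taken by symbol had 4 of 83 (4.82%). Any romidepsin peak was at a gene end in 28 of the 30, and a CM peak in 11, against 13968 and 10681 of all 21887 genes. Mmp9, a matrix protease gene, had the highest fold (chromosome 2, 164938268 to 164944260, 5993 bp, fold 3.76, 25.6 kb from CM). Il1b had a peak of 5536 bp over its start (chromosome 2, 129368730 to 129374265, fold 3.52), 70.7 kb from the nearest CM peak. Csf3, the granulocyte growth factor gene, lay wholly inside a peak of 15960 bp that also reached Med24 (chromosome 11, 98698810 to 98714769, fold 3.46), and Lif had a peak of 5577 bp (fold 3.43).

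Cxcl3, a neutrophil-attracting chemokine gene, lay wholly inside a peak of 7415 bp (fold 3.43). The same was true of Cxcl10, in a peak of 6457 bp shared with Art3 (fold 3.42), and Ccl2, the monocyte chemoattractant gene, in a peak of 10771 bp (fold 3.07). Mmp14, another matrix protease gene, had 5854 bp (fold 3.34). Of the 8 genes, Lif and Mmp14 held a CM peak in their span, and Il1b and Mmp9 did not. By the rule Csf3, Cxcl3, Cxcl10 and Ccl2 could not hold one, since a long peak covered each of them wholly. Il1rn, which encodes the interleukin 1 receptor antagonist, and Spp1, which encodes osteopontin, were noticed only after their values were seen, as genes with a start inside a long peak. Their peaks measured 8693 bp (fold 3.21, 17.8 kb from CM) and 8601 bp (fold 3.78, 20.6 kb from CM), and neither gene held a CM peak.

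Among 30 receptor genes of myeloid cells, 4 (13.3%) had a long peak at a gene end, against 2.07% of all genes, and 22 had a CM peak at one, against 10681 of 21887 genes. Clec12a, an inhibitory C-type lectin gene, had 10534 bp (fold 3.52, 3838 bp from CM). Trem1 had 2 long peaks, of 9387 and 5500 bp, that covered 61.6% of the gene (folds 3.51 and 3.19); the larger lay over its start, 60.6 kb from CM, and the smaller also reached Trem3. Slamf9 had 6605 bp (fold 3.41) and no CM peak, and Sirpa, an inhibitory receptor gene whose product binds CD47, had 7639 bp (fold 3.19). Sirpa has close copies in the genome, so its value is uncertain.

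The next lists are read against 6.47% of all genes with a long peak in the span and 2.07% with one at an end, and against a median length of 17.2 kb for all genes. Integrin genes, of a median length of 56.9 kb, had a long peak in the span in 5 of 25 and at an end in 2: Itgb3, the platelet and monocyte integrin beta 3 gene (fold 3.99), and Itgb2, the shared beta chain of leukocyte integrins (fold 2.94). Phosphodiesterase and adenylate cyclase genes (130.2 kb) had 6 of 25 in the span and 2 at an end, Pde1b (fold 3.45) and Pde4b (fold 2.94). The Pde1b peak of 5341 bp covered 0.475 kb of that gene and also overlapped Nckap1l. Pde4b held 4 long peaks in all.

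Histone deacetylase genes (27.6 kb) had a long peak inside the gene in 2 of 11 and at an end in 0. Hdac4 held 5 long peaks, with folds of 3.09 to 4.06 and gaps to CM of 93097 to 219623 bp, and Hdac5 held 1 (fold 3.32). Genes of neurons had 0 of 25 by either measure, at a median length of 122.8 kb. Developmental transcription factors (6.86 kb) had 0 of 24 at gene ends and 1 in the span, Runx2, which held 3 long peaks. Housekeeping genes (4.86 kb) had 0 of 15 at gene ends and 1 in the span, Ywhaz (10343 bp, fold 3.55). By the rule of 3 counts, a count of 0 allows up to 27.3% of deacetylase, 12% of neuronal, 12.5% of developmental and 20% of housekeeping genes. These limits lie above the shares over all genes, so nothing is read from these counts of 0.

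Markers of cell types had few long peaks at gene ends, as did protein-coding genes in general (2.07%). At gene ends the count was 1 of 10 for monocytes and macrophages, namely Csf1r, the receptor of the macrophage growth factor (8561 bp, fold 3.34, shared with Hmgxb3). It was 0 of 12 for neutrophil, 0 of 8 for dendritic cell, 0 of 14 for lymphocyte, 0 of 6 for mast cell and basophil, 0 of 6 for erythroid and megakaryocyte, and 0 of 8 for stromal and endothelial markers. By the rule of 3 counts these counts of 0 allow shares of up to 21.4% (lymphocyte) to 50% (mast cell and basophil, erythroid and megakaryocyte). They cannot be told apart from 2.07%. Within gene spans, where the share over all genes was 6.47%, long peaks were found also in Mrc1 (the mannose receptor of macrophages, fold 3.11, 166605 bp from CM), in the dendritic cell genes Irf8 (9958 bp, fold 3.54, 746 bp from CM), Zbtb46 (fold 3.19) and Bcl11a (fold 3.06), and in Pecam1 (2 peaks) and Pdgfrb (fold 3.31).

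Gene families taken by the start of their symbol gave shares at gene ends between 0% and 6.06%, against 2.07% of all protein-coding genes, and nothing is read from shares near that value. Olfactory receptor genes had 1 of 1110 (0.0901%), Olfr460, whose window reached a peak at Clec5a. Vomeronasal receptor genes had 0 of 355, which allows a share of up to 0.845% by the rule of 3 counts. Zinc finger genes of the Zfp series had 4 of 400 (1.00%), although a CM peak was at a gene end in 291 of them. C-type lectin genes had 2 of 33 (Clec12a and Clec5a, fold 3.15), CD antigen genes 4 of 100 (Cd93, fold 2.97; Cd9, 2.95; Cd44, 2.88; Cd6, 2.60), and interleukin and interleukin receptor genes 4 of 83. The last were Il21r (fold 3.93, in a peak between it and Gtf3c1), Il1b, Il10 and Il23a (fold 3.27). Potassium channel genes had 2 of 94, with Kcnn4 at 3.82, and solute carrier genes 13 of 389, with Slc6a12 and Slc6a13 in 1 peak at 3.81. Collagen genes had 1 of 44 and semaphorin genes 1 of 20, G protein-coupled receptor genes of the Gpr series 2 of 85, TNF superfamily ligand genes 0 of 12 and TNF receptor superfamily genes 0 of 20. The last 0 counts allow shares of up to 25% and 15% by the same rule.

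Of the 10 peaks farthest from any CM peak, 5 overlapped a gene, and Abca13 was the only one of these 5 genes with a CM peak in its span. The farthest lay at an end of Pcdh7, a protocadherin gene (chromosome 5, 57714150 to 57720190, fold 3.95), 3713551 bp from CM. Next was a peak in Flrt2, a cell adhesion gene (chromosome 12, 95743378 to 95750431, fold 3.54), at 1814314 bp. The 3 that followed were neighbours at the chemokine cluster on chromosome 11: the peak over Ccl2 at 704281 bp, and a pair 11700 and 26224 bp from that gene with folds of 3.33 and 3.48. Further ones lay on chromosome 13, where a pair stood 454 and 446 kb from CM with Mef2c the nearest gene at 434549 and 426371 bp, on chromosome 15 (378560 bp), in Ltbp1 (368118 bp, fold 2.78) and in Abca13 (338555 bp). At the near end, 5 peaks lay 261 to 405 bp from CM, next to Slc8b1, in Fli1 (an ETS factor of blood cells, 10047 bp, fold 3.66), over Tnfsfm13 and Tnfsf12, between genes on chromosome 4 with Jun the nearest at 42227 bp, and next to Nupr1.

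Non-coding genes were overlapped too. Of 586 long peaks outside protein-coding genes, 190 (32.4%) overlapped a long non-coding RNA gene. Long peaks overlapped 21 of 1228 microRNA genes (1.71%). The pair Mir212 and Mir132 lay together in a peak of 13307 bp over Hic1, Ovca2 and part of Smg6 (chromosome 11, 75162989 to 75176295, fold 3.99, 1776 bp from CM), chosen after its value was seen. Their 3p arms are shown because they carry the same seed (bases 2 to 8, in capitals), as given by RefSeq, build GRCm38.p6.
mmu-miR-212-3p (chr11:75173443-75173464, plus strand): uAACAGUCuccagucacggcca
mmu-miR-132-3p (chr11:75173723-75173744, plus strand): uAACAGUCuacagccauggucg

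No long peak without a CM peak lay on chromosome X. All 2546 were on the 19 autosomes, where they made up 2.19% (chromosome 10) to 3.38% (chromosome 4) of the romidepsin peaks without a CM peak. On X the count was 0 of 1207, which allows a share of up to 0.249% by the rule of 3 counts (exact upper limit 0.305%). Romidepsin peaks of 5 to 20 kb that overlapped CM numbered 8 on X. Romidepsin peaks without CM were shorter and weaker there, with a median length of 571 bp and a median fold of 2.46, against 776 to 834.5 bp and 2.56 to 2.59 on the autosomes. The median fold of CM peaks was 4.13 on X and 4.93 to 5.27 on the autosomes. The part of this lower fold in the absence of long peaks was not tested. The sex of the animals, and with it the number of X copies, is not given in the labels.

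**Figure D5:**
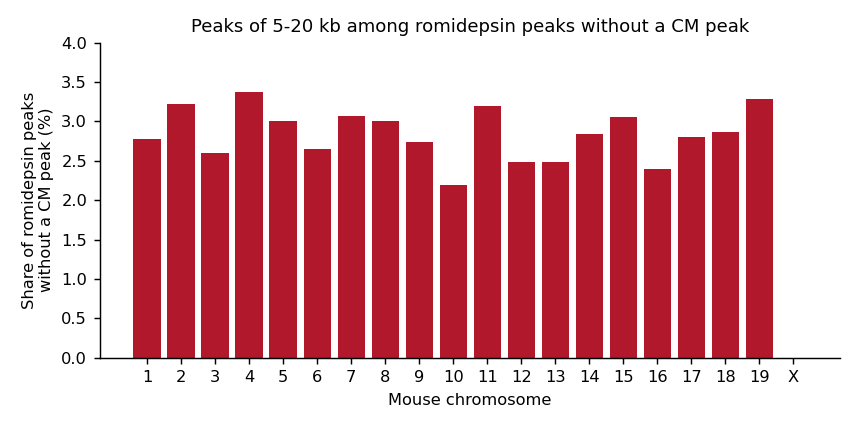
Romidepsin peaks of 5 to 20 kb without a CM peak as a share (%) of all romidepsin peaks without a CM peak, by chromosome. Autosomes range from 2.19% to 3.38%; chromosome X has 0 of 1207.

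The limits of the rule cut through continuous values. The 291 long peaks up to 250 bp over the lower length limit had a median fold of 3.08 and a median gap to CM of 13733 bp, and the 315 peaks up to 250 bp under it and without a CM peak had 3.07 and 13555 bp. Of these, 14.4% and 11.1% met a gene end, and 71.5% and 67.9% overlapped a gene. The 16 long peaks within 500 bp of a CM peak had a median fold of 3.47, and the 378 peaks of 5 to 20 kb that overlapped CM by less than 500 bp in all had 3.43. A gene end was met by 18.8% and 18.5% of these.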

How the data were processed

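H3K9ac ChIP-seq peak lists of 2 libraries were used, 1 per condition, out of 4 samples. Per the submitters' processing notes, Bowtie2 2.4.4, MACS2 2.2.7.1 and deepTools 3.5.1 were used with build mm10; its settings and any use of the input are not given in the sources used here. The authors' deposited lists give for each broad peak its position, a fold enrichment as a ratio, the −log10 p-value and q-value, and a score, which was not used. Depth is unknown.

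Peaks were taken as deposited, with positions counted from 1. Overlap meant at least 1 bp, gaps were edge to edge, and genes were the protein-coding genes of the RefSeq table of GRCm38.p6. Exons were not analysed here. Python 3.11.15, pandas 2.3.3, numpy 2.4.6 and scipy 1.17.1 were used, and the interval functions were checked on simulated data. Shares have exact Clopper-Pearson 95% intervals, and a count of 0 has the limit that 3 counts of the total would give. No test was run, since each condition had 1 library.

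Named peaks were the 10 longest, the 10 of highest fold, the 10 farthest from and the 5 nearest to a CM peak; named genes were those with most long peaks, the longest wholly covered, those in the longest runs, and up to 4 per list by fold. Other list members with a long peak were named after their values were seen. Of these, 1 of the 10 longest peaks and 1 gene list are not reported here. The peaks and lists were chosen with earlier results of these data known.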

Additional observations from a re-analysis of the deposited data

How the results depend on the processing

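The number of long peaks without a CM peak depended on both thresholds. With CM peaks of −log10 q of at least 5 only, there were 5012 such peaks; 33.1% met a gene end, at 2075 genes, 79.8% overlapped a gene, 20.5% lay within 10 kb of a CM peak, the median gap was 30627.5 bp and the median fold 3.39. With romidepsin peaks of −log10 q of at least 5 there were 275, 72.4% overlapped a gene, 48 genes had one at an end and the median fold was 3.65. A lower length limit of 7500 bp gave 732 peaks, with 84.7% overlapping a gene, 48.8% within 10 kb of CM, a median gap of 10483 bp, 150 genes and a median fold of 3.27. Merging romidepsin peaks closer than 1 kb gave 4274 peaks, with 16.6% at gene ends, 70.3% overlapping a gene, 28.0% within 10 kb, a median gap of 18608.5 bp and 846 genes. A fold of at least 3 gave a median fold of 3.275, and gene end windows of 2500 bp gave 19.6% at gene ends. Some of these shifts follow from the settings themselves. Stricter limits on romidepsin peaks can only remove long peaks, and dropping CM peaks can only add them. A fold limit cannot lower the median fold, and wider windows cannot meet fewer gene ends. The cause of the other shifts was not tested. The other 34 values lay within 1.5 times the reported count or within the reported interval, among them all with CM peaks widened by 1 kb, with sharing defined by how much of a CM peak was covered, or with chromosomes 1 to 19 and X only. No paired analysis was possible because each group had 1 library. Unknown depth limits all lengths and counts.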
